A study of Mus musculus with 6 samples.

Results

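The 10 genes described here, Stt3a, Ddost, Rpn1, Rpn2, Dad1, Spcs2, Spcs3, Sec61a1, Sec61b and Ssr1, encode parts of the oligosaccharyltransferase, the signal peptidase and the protein translocon of the endoplasmic reticulum. They were taken as every probe set of the array annotated with exactly 1 gene symbol and that symbol being one of the 10, which gave 28 probe sets out of 45037 that were not controls, for 10 of 18193 named genes. The genes were selected on their log2 signal difference between the genotypes in these same arrays, which was known when they were proposed. Those differences are therefore given as a description, and no test of these 10 genes is used as support.

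Transcripts were measured in gastrocnemius and soleus muscle of non-fasted female mice aged 5 weeks on an SJ6/C57BL6 background. The mice were either transgenic for integrin alpha7, a laminin receptor chain of muscle, or wild type controls, whose array titles carry the unexplained word Intronic. Neither the promoter of the transgene nor the number of founder lines is given in the sources used here. Each genotype was represented by 3 Affymetrix Mouse430_2 arrays, and each array held RNA pooled in equal parts from 6 animals, so 18 animals stood behind a genotype and the spread between arrays is a spread between pools.

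Most proteins that enter the secretory pathway are threaded into the endoplasmic reticulum while they are still being made. The Sec61 channel opens the membrane to the growing chain, with the translocon-associated protein complex, to which Ssr1 belongs, beside it. The signal peptidase cuts off the leading signal peptide, and the oligosaccharyltransferase moves a preassembled glycan onto asparagine residues of the chain. Integrins are themselves glycosylated membrane proteins that take this route, and in muscle it also supplies the receptors, channels and matrix proteins of the fibre surface.

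The stretches of DNA just before the transcription starts were examined for the elements by which unfolded proteins in the endoplasmic reticulum are known to switch on genes. RefSeq windows of assembly GRCm38.p6, running from 250 bases before to 50 after a start, were held for 8 of the 10 genes, in 9 windows. The 4 upstream parts shown are those of Ddost, Rpn2 (the first of its 2 windows) and Spcs2, whose signals differed most between the genotypes among genes with a window, and that of Stt3a, whose brightest probe set did not differ. Capitals mark the letters CCAAT and CCACG on either strand, reading ATTGG and CGTGG on the opposite one, and each run ends at the base before the start.
Ddost, chr4:138304488-138304737, forward strand: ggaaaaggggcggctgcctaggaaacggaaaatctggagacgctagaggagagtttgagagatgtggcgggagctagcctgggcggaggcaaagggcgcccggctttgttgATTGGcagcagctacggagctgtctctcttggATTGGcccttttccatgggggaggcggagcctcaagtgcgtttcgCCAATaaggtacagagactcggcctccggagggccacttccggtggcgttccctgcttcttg
Rpn2, chr2:157278848-157279097, forward strand: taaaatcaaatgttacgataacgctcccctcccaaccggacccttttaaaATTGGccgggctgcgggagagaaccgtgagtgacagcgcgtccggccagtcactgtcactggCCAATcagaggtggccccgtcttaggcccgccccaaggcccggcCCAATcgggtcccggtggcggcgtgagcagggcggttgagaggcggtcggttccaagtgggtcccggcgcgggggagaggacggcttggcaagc
Spcs2, chr7:99858884-99859133, reverse strand: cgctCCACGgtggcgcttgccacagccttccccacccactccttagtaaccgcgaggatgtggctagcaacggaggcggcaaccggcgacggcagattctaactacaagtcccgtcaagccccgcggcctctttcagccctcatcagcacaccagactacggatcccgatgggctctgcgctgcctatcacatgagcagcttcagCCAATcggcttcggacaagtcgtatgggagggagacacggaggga
Stt3a, chr9:36767623-36767872, reverse strand: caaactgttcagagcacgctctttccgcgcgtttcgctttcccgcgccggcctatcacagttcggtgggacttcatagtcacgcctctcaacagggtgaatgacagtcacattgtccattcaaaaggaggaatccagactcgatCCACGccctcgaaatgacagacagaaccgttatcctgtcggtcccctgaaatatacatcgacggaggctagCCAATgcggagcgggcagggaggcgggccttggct

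The full endoplasmic reticulum stress element, CCAAT and CCACG with 9 bases of any kind between them, was found in 0 of the 8 genes on either strand, against 0.137% of 27025 genes with windows of the same length, or 0.119% of 32851 windows. Its second form, ATTGG and CCACG with 1 base of any kind between them, and the unfolded protein response element TGACGTGG, which contains CCACG when read on the opposite strand, were also found in 0 of the 8, against 0.0444% and 0.714% of all genes. Both forms contain the shorter pieces CCAAT and CCACG, which were common. The TATAAA box was found in 0 of the 8 genes, against 15.7% of all genes. CCAAT stood in the windows of 6 of the 8 genes, Stt3a, Ddost, Rpn1, Rpn2, Spcs2 and Dad1, against 41.1% of all genes (6 of 9 windows against 37.4%), and Ddost and Rpn2 held 3 copies each. CCACG stood in those of 6 as well, Stt3a, Ddost, Rpn1, Spcs2, Dad1 and Ssr1, against 35.5% of all genes (6 of 9 windows against 32.8%), and in Ddost and Dad1 only after the start. Of 60 further genes of the pathway with a window, Alg12 held the full element and Krtcap2 its second form. These are matches of letters in short windows and say nothing of binding.

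Itga7 rose strongly in transgenic muscle, and the 10 genes showed small differences, none past the threshold. The single probe set of Itga7 gave signals of 254, 308 and 313 in wild type and 2498, 2144 and 2072 in transgenic muscle, a 7.32-fold difference with an adjusted p of 1.67e-07 in limma. These arrays read whole muscle, in which fewer cells of a type and less RNA per cell cannot be told apart. All 9 fibre markers were above the filter on dim signals, which lay at a signal of 21.7. So were 7 fibroblast markers, so passing it does not by itself mark muscle. The summed signal of the 9 was at least 132901 on every array, and that of the 7 at most 36840.1. Of the 28 probe sets of the 10 genes, 26 passed that filter, covering all 10 genes, and the other 2, one each of Stt3a and Rpn1, had mean signals of at most 13.8 in either genotype. Correlation of log2 signals between pairs of arrays was 0.971 to 0.981.

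In the moderated test of limma over 27022 probe sets, 0 of the 26 passed an adjusted p of 0.05, where 0.122% of all probe sets did, 0.0999% as higher and 0.0222% as lower. At an unadjusted p under 0.05, 7 were higher and 0 lower in transgenic muscle, where 3.51% and 4.34% of all probe sets were, or 7.85% in either direction. Every transgenic array lay above every wild type array for 9 of the 26, where this held for 5.85% of all probe sets, and every one below for 0, where this held for 7.5%, or 13.4% in either direction. The difference was positive for 19 of the 26, where it was for 47.4% of all probe sets. By the brightest probe set of each gene, the arrays did not overlap for 8 of the 10 genes, all higher, against 6.67% of 12942 genes. Since the genes were chosen with this contrast in view, nothing is read from these shares. The median log2 difference, transgenic minus wild type on the log2(signal + 16) scale used throughout, was 0.11 over the 26 probe sets and -0.01 over all probe sets.

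**Figure D1:**
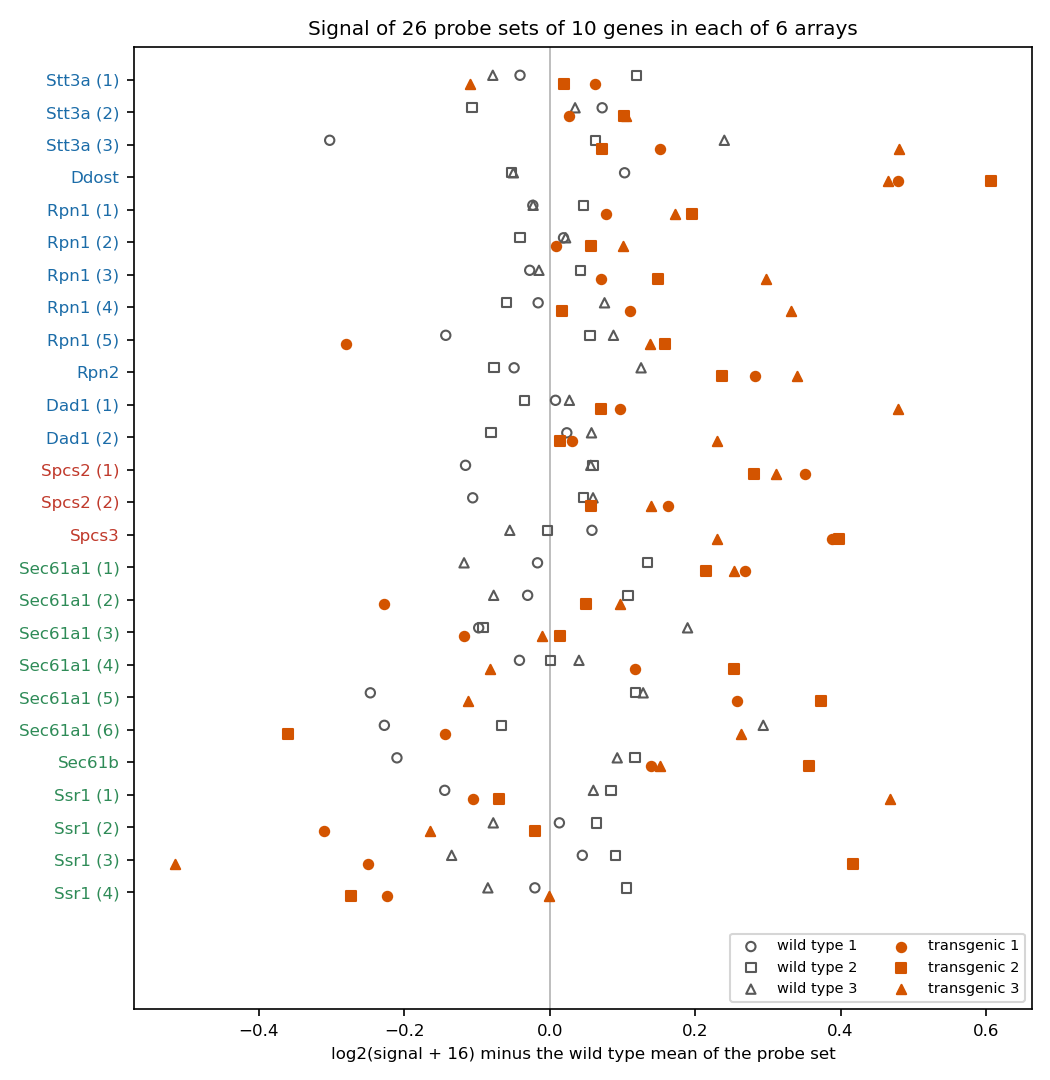
Signal of each of the 26 probe sets that passed the filter in each array, as log2(signal + 16) minus the wild type mean of that probe set, with open symbols for wild type, filled symbols for transgenic muscle and shape for the replicate number. Gene names are blue for oligosaccharyltransferase, red for signal peptidase and green for translocon, and probe sets of a gene are numbered from the brightest in wild type. Ddost, Rpn2, Spcs3 and the brightest probe set of Spcs2 have all transgenic arrays apart from and above the wild type ones, while the dimmer probe sets of Sec61a1 and Ssr1 scatter around 0.

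Among the oligosaccharyltransferase genes, Ddost, which encodes the 48 kDa structural subunit, differed most. Its only probe set gave 441, 395 and 395 in wild type and 578, 633 and 572 in transgenic muscle, or 410.4 ± 26.8 against 594 ± 33.4 (SD, n = 3). The lowest transgenic array stood well clear of the highest wild type one. The difference was 1.43-fold, with a 95% interval of 1.25 to 1.64, and only 1.72% of all probe sets had a higher log2 difference. Its adjusted p in limma, 0.0669, was the smallest among the 10 genes and is given as a description.

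Rpn2, which encodes ribophorin II, a membrane subunit of the same enzyme, followed. Its signals were 477, 468 and 541 in wild type and 605, 585 and 629.7 in transgenic muscle, with means of 495 ± 39.6 and 607 ± 22.3 (SD, n = 3). The arrays did not overlap, and the difference was 1.22-fold with an interval of 1.07 to 1.39. Its partner Rpn1, ribophorin I, which helps present some membrane proteins to the enzyme, was measured by 5 probe sets above the filter, and all gave small positive differences. The brightest gave 995, 1045 and 996 against 1069, 1162 and 1142, and the log2 differences over the 5 ran from 0.01 to 0.17. For 2 of the 5 the arrays did not overlap, and the larger of these differences, 0.17, was 0.11 without transgenic replicate 3. The 4 brightest carry the suffix _x_at, which on this platform marks sets with probes that may also match other sequences, so they are not independent measurements.

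Dad1, a small membrane subunit first known as a defender against cell death, showed a difference that leaned on a single array. Its brighter probe set gave 954, 925 and 967 in wild type and 1015, 997 and 1328 in transgenic muscle. All transgenic values were above all wild type values, but transgenic replicate 3 was far above the other two. The log2 difference was 0.22 with all arrays and 0.08 without that array. Its dimmer probe set, with the suffix _x_at, gave 549, 509.6 and 563 against 552, 546 and 636, and there the genotypes overlapped.

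Stt3a encodes the catalytic subunit of the oligosaccharyltransferase form that sits at the translocon and works on chains as they emerge. Its brightest probe set gave 510.3, 572 and 497 in wild type and 549, 533 and 486 in transgenic muscle, or 526 ± 40.1 against 523 ± 33.1 (SD, n = 3). These values overlapped fully, with a log2 difference of -0.01 and an interval of -0.21 to 0.19. A second probe set gave 289, 254 and 282 against 280.0, 296 and 296, a log2 difference of 0.08 with an interval of -0.14 to 0.30. No difference was detectable on either, within those intervals. The brightest set carries the suffix _x_at, so its probes may also match other sequences. The next probe set was dim, at 29.9 and 37.7 on average, and its interval of -0.30 to 0.76 was wide.

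Both signal peptidase genes had higher signals in every transgenic array on their brighter or only probe set. Spcs3, an essential accessory subunit on the luminal side, gave 430.5, 412 and 397 in wild type and 545, 549 and 487 in transgenic muscle, with means of 413 ± 16.8 and 527 ± 34.8 (SD, n = 3). The groups were apart, and the difference was 1.26-fold, a log2 difference of 0.34 with an interval of 0.14 to 0.53. Spcs2, a subunit that links the peptidase to the translocon, gave 1435, 1622 and 1619 against 1989, 1893 and 1934 on its brighter probe set. There too the groups were apart, and the difference was 1.24-fold with an interval of 1.12 to 1.38. The dimmer probe set of Spcs2 gave 503, 561 and 566 against 609, 565 and 599.5, so that 1 transgenic array fell within the wild type range and the difference was 1.09-fold. The log2 differences of the brighter and the dimmer set, 0.31 and 0.12, had overlapping intervals, 0.16 to 0.47 and -0.07 to 0.31.

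The translocon genes were mixed, with 5 positive and 6 negative differences over 11 probe sets and a median log2 difference of -0.03. With the arrays set to equal medians, 22 of the 26 probe sets were positive in place of 19, the 3 that changed being the brightest of Stt3a and a pair of Sec61a1. Sec61b, the small beta subunit of the channel, gave 1328, 1670.5 and 1642 in wild type and 1696, 1975 and 1712 in transgenic muscle, or 1547 ± 190.0 against 1794 ± 157 (SD, n = 3). The groups met without overlapping, the lowest transgenic array being just above the highest wild type one, and the difference was 1.16-fold, a log2 difference of 0.22 with an interval of 0.01 to 0.43. Wild type replicate 1 was far below the other wild type arrays, and without it the log2 difference was 0.11. Sec61a1, the pore-forming alpha subunit, had 6 probe sets with both positive and negative differences. The brightest gave 271, 303 and 251 against 334, 321 and 329.9, a 1.19-fold difference without overlap. The next, of nearly the same brightness, gave 268, 297 and 259 against 232, 285 and 294, with a log2 difference of -0.03, and the remaining 4 ran from -0.08 to 0.17 with overlapping arrays. Whether these probe sets read different parts or transcript forms of Sec61a1 was not tested here.

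Ssr1, the alpha subunit of the translocon-associated protein complex, gave no direction. Its brightest probe set gave 379, 447 and 439 in wild type and 389.9, 399.8 and 588 in transgenic muscle. Only transgenic replicate 3 exceeded the wild type range, and without it the log2 difference went from 0.10 to -0.09. The second probe set gave 246, 255 and 229.7 against 193, 239.8 and 215, a log2 difference of -0.17, and the 2 dimmest gave -0.12 and -0.17, all with overlapping arrays. Transgenic replicate 3 held the highest value of the 6 arrays in 9 of the 26 probe sets, or 34.6%, against 19.4% of all probe sets, and transgenic replicate 2 in 8, or 30.8%, against 16.1%. The lowest value was held by wild type replicate 1 in 8, or 30.8%, against 16.6%, and by wild type replicate 2 in 7, or 26.9%, against 15.1%. The genes were chosen on the genotype difference in these same arrays, and that choice can by itself raise such shares. Nothing about single arrays is therefore read from them. Without transgenic replicate 3, 19 of the 26 differences were positive, as with all arrays. At an unadjusted p under 0.05 in limma 5 were then higher, against 3.64% of all probe sets. Without wild type replicate 1, 18 were positive and 4 were higher at that level, against 3.23% of all probe sets. For the same reason, nothing is read from these counts beside the shares of all probe sets.

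By the hybridisation times recorded for the fluidics station, the arrays fell into 2 rounds that each held both genotypes, replicates 1 and 2 in the first and replicate 3 in the second. Of the 26 probe sets, 15 were positive in both rounds, 2 negative in both and 9 of opposite sign. The share over all probe sets was not computed, and the genes were chosen on a difference made of these rounds. No agreement between the rounds is read from that count. All 9 probe sets whose arrays did not overlap were positive in both rounds, which their lack of overlap fixes in advance. Ddost gave log2 differences of 0.52 in each round, Spcs3 0.37 and 0.29, the brighter set of Spcs2 0.34 and 0.25, and Rpn2 0.32 and 0.21. Sec61b leaned on the first round, at 0.29 against 0.06, and the brighter set of Dad1 on the second, at 0.10 against 0.45. The second round compared 1 array with 1, so its values have no error.

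**Figure D2:**
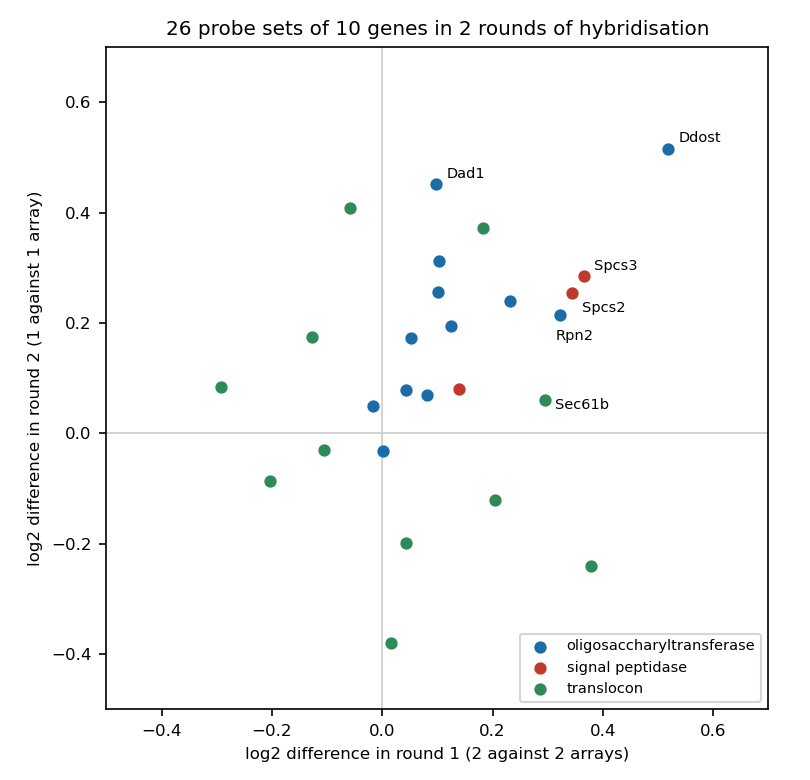
Log2 difference, transgenic minus wild type, of the 26 probe sets in hybridisation round 1 (horizontal, 2 against 2 arrays) and round 2 (vertical, 1 against 1 array), coloured by complex. Ddost lies at 0.52 on both axes, Spcs3, Spcs2 and Rpn2 lie in the upper right, and the translocon probe sets spread to both sides of 0.

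The remaining subunits of the same complexes, listed from textbook membership and not by their values, are set beside the 10. Of 39 probe sets of 18 genes that passed the filter, 28 had positive differences, with a median of 0.15. None passed an adjusted p of 0.05 in limma, against 0.122% of all probe sets. At an unadjusted p under 0.05 in limma, 13 were higher and 2 lower, against 3.51% and 4.34% of all. For 13 the transgenic arrays lay wholly above, against 5.85% of all probe sets, and for 4 wholly below, against 7.5%. By the brightest probe set of each gene, 9 of 18 were wholly above and 1 wholly below, against 6.67% and 7.56% of all genes. These genes share the arrays and the contrast of the 10, and earlier results of the data were known when they were listed.

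Magt1, an oxidoreductase subunit of the oligosaccharyltransferase form that glycosylates after translation, was high on both probe sets. The brighter gave 632, 656 and 564 in wild type and 802, 757 and 780.4 in transgenic muscle, and the dimmer 424, 377 and 423 against 554, 541 and 489.6. Neither overlapped, and the differences were 1.26-fold and 1.28-fold, with adjusted p in limma of 0.277 and 0.290. Stt3b, the catalytic paralogue of Stt3a in that form, gave 1766, 1764 and 1712 against 2002, 2015 and 1802 on its brighter set, a log2 difference of 0.15 without overlap, and 0.00 on its dimmer one. Krtcap2 and Ostc, small subunits of the Stt3a form, gave log2 differences of 0.29 and 0.27 on the probe sets of Krtcap2 and 0.27 and 0.09 on those of Ostc, of which the dimmer Ostc set overlapped, and the brighter Krtcap2 set gave 0.19 without transgenic replicate 3. Ost4, Tmem258 and Tusc3 gave differences from -0.06 to 0.08 with overlapping arrays.

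The catalytic chains of the signal peptidase, Sec11a and Sec11c, were also above wild type on their brightest probe sets. Sec11a gave 661, 668 and 690.5 in wild type and 806, 769 and 840.5 in transgenic muscle, a 1.19-fold difference with an adjusted p in limma of 0.389. Sec11c gave 273, 272 and 274 against 367, 334 and 348, a 1.26-fold difference with an adjusted p in limma of 0.334, while a dim probe set of it gave a log2 difference of -0.19 from a signal of 29.0, with its transgenic arrays wholly below, and -0.12 without wild type replicate 1. Spcs1, the smallest accessory subunit, gave log2 differences of 0.09 and 0.10, the latter without overlap. By brightest probe set, these 3 further subunits had positive differences, where 49% of all genes did, and that of Spcs1, 0.09, came with overlapping arrays.

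Among the translocon partners, Ssr3, the gamma subunit of the translocon-associated complex, had the widest differences upward. Its brighter probe set gave 2473, 2737 and 2693 in wild type and 2917, 3473 and 3556 in transgenic muscle, a 1.25-fold difference with an adjusted p in limma of 0.263. Its dimmer set gave 740.1, 737 and 759 against 1128, 1645 and 786, so transgenic replicate 3 was close to wild type there. That set carries the suffix _x_at, with the limit given for Rpn1. The log2 difference was 0.60, without transgenic replicate 2 it was 0.33, and without replicate 3 it was 0.86 with an adjusted p in limma of 0.0303, where over all alternatives that p ran from 0.0303 to 0.729. Ssr2 and the brightest set of Ssr4 gave 0.30 and 0.18, and the dim sets of Ssr4 gave -0.24, with the transgenic arrays wholly below, and 0.46 with overlap. Without transgenic replicate 3 the former was -0.15, and the latter passed the filter, set on mean log2 signal, only through its transgenic arrays. Sec62, a translocon partner for chains that enter after translation, gave lower signals in transgenic muscle, with log2 differences of -0.17 and -0.24 and no overlap on its 2 brightest sets, the latter -0.14 without wild type replicate 2. Its others ran from -0.32 to 0.39 with overlap, the 0.39 from a set whose wild type mean log2 signal was just below the filter. The alpha subunit paralogue Sec61a2 gave -0.01 and 0.07, and the 5 probe sets of Sec63 gave 0.08 to 0.22. Tram1, a helper of chain entry, gave 0.23, or 0.13 without transgenic replicate 3, and -0.04 on an _x_at set. Tram2, a relative linked to collagen synthesis, gave -0.49 and 0.18.

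**Figure D3:**
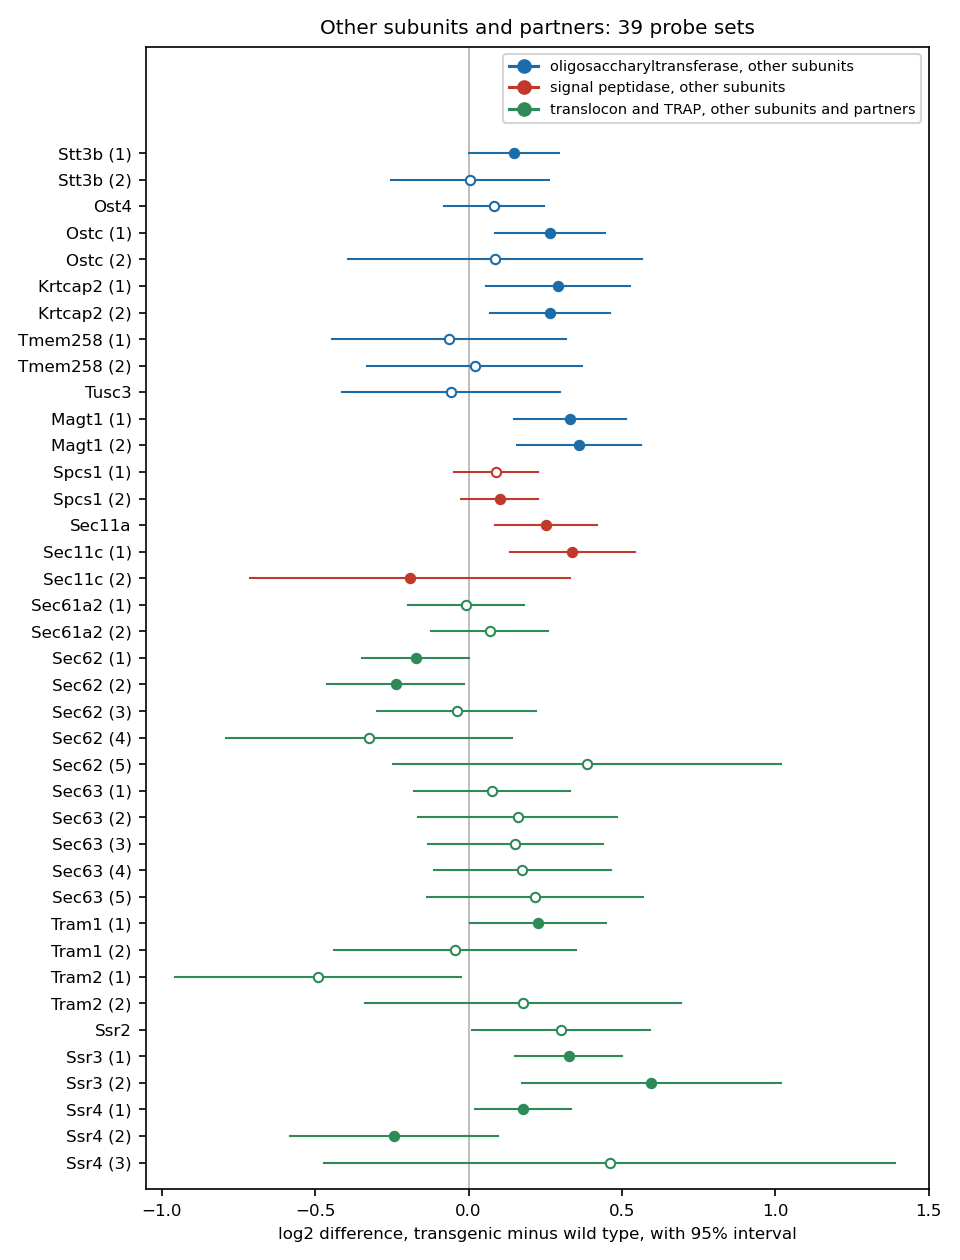
Log2 difference, transgenic minus wild type, with its 95% interval in limma, for the 39 probe sets of other subunits and partners, coloured by complex. Filled points have arrays that do not overlap between the genotypes, and sets of a gene are numbered from the brightest. Most points lie above 0, with Magt1 and Sec11c (1) near 0.34, while both bright sets of Sec62 lie below 0.

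For the signal recognition particle, which brings ribosomes to the membrane, and its receptor, 13 of 16 probe sets were positive, with a median log2 difference of 0.14. The receptor chain Srpr, on its brighter set, gave 2546, 2555 and 2791 in wild type and 3109.7, 3040.3 and 3094 in transgenic muscle, a 1.17-fold difference with an adjusted p in limma of 0.301, while its dim set gave -0.08 with overlap. Srprb, the membrane anchor of that receptor, gave log2 differences of 0.35 to 0.39 on 3 probe sets, 1 of them without overlap. Srp14, a particle protein, gave 0.15 without overlap on 1 of 4, an _x_at set. A dim set of Srp54b, for a particle protein that reads the signal peptide, gave 0.33 without overlap and 0.18 without transgenic replicate 3. Its wild type signal, 18.9, was below the filter of 21.7. It passed only through its transgenic arrays and is among the 13 positive sets. The genes that build the lipid-linked glycan had a median of 0.07 over 38 probe sets. Of these, 4 lay wholly above and 1 wholly below, against 5.85% and 7.5% of all probe sets. Dpagt1, which starts that glycan, gave 204, 224 and 197 against 251, 266 and 284, a 1.26-fold difference with an adjusted p in limma of 0.428. Alg2, a mannosyltransferase, gave 0.25 on its brighter set, and 0.14 without transgenic replicate 3. Dhdds, which makes the dolichol chain, gave 0.17 on its brightest set and 0.19 on another, both with overlap, and 0.44 without overlap on a set with a wild type signal of 38.5.

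The genes for other ways into the membrane, the EMC and GET machinery, had a median log2 difference of 0.01 over 25 probe sets. Of these, 13 were positive and 12 negative. Only Emc7, on 1 set, lay wholly above, where 5.85% of all probe sets did. It gave 0.22 with all arrays and 0.12 without transgenic replicate 1. The first glycan-trimming enzymes had a median of 0.13 over 7 probe sets, none without overlap, where 13.4% of all probe sets were. Over all 125 probe sets of these 69 genes together, 0 passed an adjusted p of 0.05 in limma, where 0.122% of all probe sets did. Their median log2 difference was 0.08. At an unadjusted p under 0.05 in limma, 19 were higher and 3 lower, against 3.51% and 4.34% of all. Among the 3 lower was a dim set of Emc8, at -0.78 with overlap. Its transgenic signal, 17.2, was below the filter of 21.7, so it passed only through its wild type arrays. Without wild type replicate 1 the counts higher and lower were 12 and 1, and without the intensity trend 11 and 0. With the fluidics module as random block they were 28 and 8. The share of all probe sets higher at that level moved too, to 3.23%, 2.92% and 7.29% in those settings. Of the 75 genes listed, 70 had a probe set with 1 symbol. No test compared the lists with each other.

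**Figure D4:**
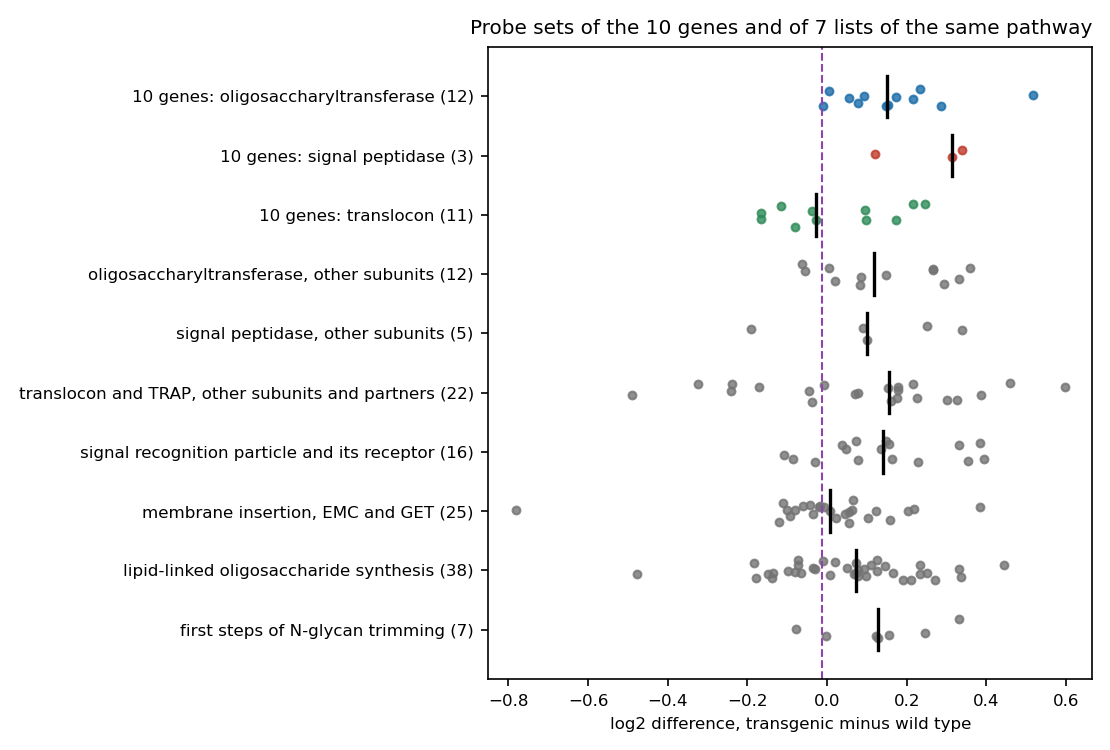
Log2 difference, transgenic minus wild type, of every probe set that passed the filter, for the 10 genes by complex (coloured) and for the 7 lists of further genes (grey), with the number of probe sets in brackets, the black bar at the list median and the dashed line at the median of all probe sets, -0.01. The 3 probe sets of Spcs2 and Spcs3, genes chosen on this difference, have a median of 0.31. The other signal peptidase subunits have a median of 0.10, and the EMC and GET list sits at 0.01.

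Markers of muscle fibres and of the other cell types in the calf were set beside these values, and none passed an adjusted p of 0.05 in limma. The summed signal of 9 fibre markers was 146204 to 149093 in wild type and 132901 to 141289 in transgenic muscle, and that of 5 endothelial markers 1321 to 1439 and 1147 to 1250.1, both lower and without overlap. Of the 12 fibre probe sets above the filter, 9 had negative differences. The 3 positive ones were those of Myh7 (0.14) and Tnnt1 (0.02) and the dimmer set of Ckm (0.11), all with overlap. The highest signal of an array was 23547.1 to 23952.5 in wild type and 21385.5 to 22468.8 in transgenic muscle. Whether the lower fibre sum reflects the top of the scale was not tested. For 7 fibroblast markers, of a cell rich in secretory machinery, the summed signal was 34575 to 36840.1 and 31396 to 35284, with overlap. For 6 macrophage markers it was 4931 to 5256 and 4603 to 4917, without overlap. The ranges overlapped for 7 plasma cell and lymphocyte markers, of which Cd3e was below the filter, at 494 to 562 and 482 to 566. Of 9 plasma cell and lymphocyte probe sets above the filter, 7 had positive and 2 negative differences, with a median of 0.12. Among 13 fibroblast sets 4 were positive and 9 negative. The summed ranges also overlapped for 6 tendon and cartilage, 3 adipocyte and 3 Schwann cell markers. No summed marker list was higher in all transgenic arrays, and the part of cell makeup in the differences above was not tested.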

How the data were processed

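Per the labels, RNA of 6 animals was pooled for each of 6 arrays, 3 of each genotype. The authors deposited 1 linear intensity for every probe set. GCOS 1.1.1 is named in the submitters' processing notes, without the algorithm or scaling target. The values show a common scale, with a mean after trimming 2% at each end of 149.0 to 149.1 on every array, which hides any shift common to most transcripts. The deposited run files were read for hybridisation round and fluidics module.

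Of 45101 rows, 64 controls were left out. Of the rest, 34945 carried 1 symbol, 932 several and 9160 none, and 34741 of the first matched the RefSeq gene table of GRCm38.p6 by gene identifier. Signals were analysed as log2(signal + 16), which understates changes of dim transcripts, and probe sets with a mean above the 40th percentile were kept, 27022 in all. The genotypes were compared in limma 3.58.1 (R 4.3.3) with an intensity trend, no covariates, two-sided tests and Benjamini-Hochberg adjustment over all kept probe sets. With 3 arrays a group an exact permutation test could not go below a p of 0.1. The number of arrays limits the precision, and 95% intervals had a median half-width of 0.22 over the 26 probe sets and 0.37 over all. The fit was tested on simulated data.

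Genes, lists and tests were chosen with earlier results of these data known. The text names Itga7, the 10 genes with every probe set, the remaining subunits of their complexes, any pathway gene past the threshold and, per list, up to 3 genes of smallest p whose arrays do not overlap. Srp54b and Emc8 are named beyond that rule, as dim sets that passed the filter through a single genotype. Srp9, with a smaller p in limma than Srp54b, also fell outside it, with 0.16 without overlap on its dimmer set. Equal replicate numbers were not treated as pairs. Other offsets, filters, scalings, variance models, blocks and left-out arrays were tried. Figures were drawn with matplotlib 3.10.9.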

Additional observations from a re-analysis of the deposited data

How the results depend on the processing

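Over 19 alternatives, 16 of the 26 probe sets of the 10 genes kept the sign of their log2 difference in every one. Among them were those of Ddost (0.47 to 0.57), Rpn2 (0.21 to 0.35), Spcs3 (0.29 to 0.39) and both of Spcs2. The genes were chosen on this difference. Where arrays did not overlap, leaving out an array or taking a round alone could not change the sign. Nothing is therefore read from that count. The median over the 26 moved by less than the spread between arrays, with 0.08 to 0.14 when 1 array was left out. The count of the 26 past an adjusted p of 0.05 in limma, 0 with the settings reported, was 1 with equal array medians and 1 with array weights, both Ddost, and 3 with a random block for the fluidics module (Ddost, Spcs2 and Spcs3), where modules never mixed genotypes and arrays of a module correlated at -0.436. It stayed 0 whichever array was left out, and the adjusted p of Ddost ran from 0.0096 to 0.418 over 18 alternatives with a test. The pathway median log2 difference, over the 125 probe sets of other genes, was 0.127 with equal array medians, which moved the median of all probe sets from -0.01 to 0.04, and 0.0651 to 0.0985 when 1 array was left out. Their count of calls was 4 with that block (Ssr3, Srpr, Magt1 and Sec11c), and 0 to 1 when 1 array was left out, the 1 being Ssr3 without transgenic replicate 3. Over all probe sets, 33 calls became 17 with no filter, 50 with equal array medians, 1 without the intensity trend, 297 with the module block and 18 to 39 when 1 array was left out (wild type replicate 2 gave the 18 and wild type replicate 1 gave 19). With the replicate block there were 36 calls, and 0 of the 26. Same-numbered arrays of the genotypes deviated together with correlations of 0.00, 0.06 and 0.05, and differently numbered ones with -0.08 to 0.02. The labels do not say that a replicate number is shared between genotypes, so the numbers were not taken as pairs. Causes of these changes were not tested.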
